A study of Mus musculus with 16 samples.

Results

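Endothelium of the wild-type mouse heart was set against endothelium of the wild-type mouse lung in 5 libraries, 2 from heart and 3 from lung, out of 16 libraries in the series. Both organs carry continuous capillaries, which lack the open pores of liver sinusoids. The comparison asked how far the endothelial transcripts of these 2 organs differ without any gene deletion. The cells were not sorted by vessel type, so the values are not those of capillaries alone. Members were every library that the labels call wild type and that came from heart (replicates 1 and 3) or lung (replicates 1, 2 and 3). All 19646 genes with enough reads entered the test. Replicate numbers are those of the sample descriptions, and the title of heart replicate 3 calls it replicate 2. The remaining libraries are 3 liver controls and 8 libraries from mice with a double knockout of Erg and Fli1, which encode transcription factors of the ETS family: 2 from heart, 3 from lung and 3 from liver. All mice of the series, controls included, had received tamoxifen, and tissue was taken on day 10. Endothelial cells were labelled in the living mouse with an antibody to VE-cadherin, released with collagenase and dispase, and sorted as live cells without CD45 (the leukocyte surface antigen) and with CD31 and VE-cadherin. The labels give no strain, no age at induction and no driver of the deletion, and do not say whether libraries with the same number came from 1 mouse, so p-values measure the spread between these libraries. In such bulk samples, fewer cells of a type and less RNA per cell cannot be told apart.

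Capillaries of the heart lie against working muscle that burns mainly fatty acids, and their endothelium takes up lipoprotein-derived fatty acids and passes them to the muscle fibres. Capillaries of the lung lie against the alveolar epithelium and exchange gas with air. They also clear or convert circulating mediators such as prostaglandins, noradrenaline and angiotensin I. Lung capillaries hold a general type of endothelial cell and a second, larger type named the aerocyte, which depends on vascular endothelial growth factor (VEGF) from the epithelium.

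The 5 libraries held between 33812628 and 40468860 counts. Over log CPM (CPM is a count relative to its library's total, scaled by TMM factors of 0.963 to 1.02), the heart libraries correlated at 0.993 with each other, the lung libraries at 0.991 to 0.994, and heart with lung at 0.921 to 0.926, across genes. Mitochondrial transcripts took 1.69% and 2.85% of counts in heart and 1.02% to 1.09% in lung. Lung control 2 carried Y-linked transcripts, which were at or near 0 in the other 4 libraries. The gene-level counts of the deleted genes do not settle the genotype labels, since Erg was lower in the knockout libraries and Fli1 was not clearly lower. Fli1 was at 207 and 232 CPM in the knockout heart libraries against 198 and 236 CPM in the heart controls. Erg was at 158 and 155 CPM against 204 and 229 CPM there. In lung, Erg was at 224, 166 and 164 CPM in knockouts against 263, 259 and 276 CPM in controls. In liver it was at 165, 136 and 131 CPM against 361, 337 and 371 CPM. Fli1 in lung was at 136, 98.2 and 138 CPM in knockouts against 76.6, 77.9 and 76.6 CPM.

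Across all genes, edgeR's quasi-likelihood test with Benjamini-Hochberg adjustment called 2643 genes higher in heart (13.5% of those tested) and 3156 higher in lung (16.1%) at an adjusted p below 0.05. The 2 directions together made 29.5% of the genes. Counts of calls in the gene groups below are to be read against these shares. Without heart control 1 the counts were 1636 and 1831, and without heart control 3 the heart count was 1763. Of the calls, 1709 for heart and 2214 for lung were at least 2-fold, and 635 and 1161 at least 8-fold. In 2636 of the heart calls and 3152 of the lung calls no heart library overlapped any lung library. Over all 19646 genes tested, called or not, 5611 were separated in this way for heart and 6011 for lung. The median log2 difference over all genes was -0.01. Throughout, a difference is heart minus lung on the log2 scale, with the standard error of the fit, and "called" means past this threshold.

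Endothelial genes were high in all 5 libraries (Cdh5 2630.1 and 2818 CPM in heart and 3258, 3467 and 3777 CPM in lung), and transcripts of neighbouring cells were also present and differed between the tissues. Of 79 cardiomyocyte markers tested, 55 were higher in heart and 2 in lung, and their summed level was 1274 to 1482 CPM in heart and 664 to 695 CPM in lung. Myh6, the main heavy chain of mouse heart myosin, was at 52.4 and 84.9 CPM in heart, and Mb (myoglobin) at 39.8 and 59.8 CPM. In lung, Myh6, Tnnt2, Tnni3, Actc1, Myl2 and Ttn were at or below 4.87 CPM, so the lung sum came mostly from other list members. Of 34 markers of surfactant-producing alveolar type 2 cells, 29 were higher in lung and 1 in heart, with sums of 3647 to 4207 CPM in lung and 636 to 714 CPM in heart. Sftpc, a surfactant protein, reached 993, 1183 and 1050.1 CPM in the lung libraries and 0.929 to 1.3 CPM in heart. Sftpb, Sftpa1, Sftpd and Lamp3 were at or below 0.693 CPM in heart, so the heart sum came mostly from other list members. The 27 alveolar type 1 markers (19 higher in lung, 1 in heart) summed to 3554 to 4685 CPM in lung and 1419 to 1466 CPM in heart. The 28 airway markers (21 higher in lung, 0 in heart) summed to 2478 to 4176 CPM in lung and 372 to 446 CPM in heart. The secretory marker Scgb1a1 was at 265, 182 and 1289 CPM in lung. In heart, the type 1 markers Ager, Hopx, Rtkn2 and Aqp5 were at or below 3.96 CPM. The airway markers Scgb1a1, Scgb3a2 and Foxj1 were at or below 1.3 CPM there. Of 33 pericyte and smooth muscle markers, 17 were higher in heart and 1 in lung, with sums of 2747 to 2819 CPM in heart and 2059 to 2223 CPM in lung. Without heart control 3 the 17 became 8, and without lung control 2 or 3 they became 11 and 11. Fibroblast markers were closer, with 15 of 53 higher in heart, 6 in lung and sums of 5989 to 6397 against 5492 to 5869 CPM. Leaving out single libraries brought these fibroblast counts to 6 to 10 for heart and 2 to 6 for lung. Macrophage and monocyte markers (17 of 36 higher in lung, 0 in heart; 7 without heart control 1) summed to 830 to 885 CPM in lung and 152 to 222 CPM in heart, of which most was Lyz2, an enzyme gene that type 2 cells also express. Ptprc, which encodes CD45, stood at only 10.1, 4.85 and 6.61 CPM in lung and 1.31 and 2 CPM in heart. Of 13 markers of endocardium, the lining of the heart chambers, 5 were higher in heart and 3 in lung. They summed to 922 to 1926 CPM in heart and 5381 to 6544 CPM in lung. Among them, Npr3 was at 25.7 to 178 CPM in heart and 353 to 373 CPM in lung and was not called. How much of any result below these cells contribute was not tested, and values of several are given beside the gene groups they touch.

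**Figure D1:**
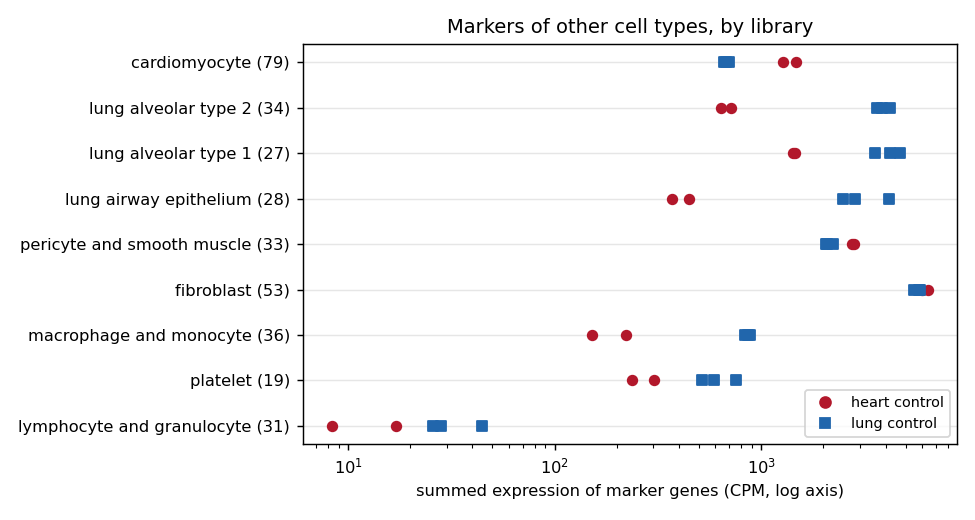
Summed expression (CPM, log axis) of marker genes of 9 other cell types in each of the 5 control libraries, with 1 point per library, heart in red and lung in blue. Alveolar and airway sums lie higher in every lung library than in either heart library, and the cardiomyocyte sum lies higher in heart. Fibroblast sums lie closest. Sums include list members that the other tissue also expressed, so a sum does not measure cell content.

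The genes with the largest differences towards heart included transport proteins, fatty acid handling proteins and transcription factors. Slc28a2, a concentrative transporter of purine nucleosides, was at 760.0 and 623 CPM in heart and 1.45, 0.471 and 0.976 CPM in lung (log2 difference 9.46 ± 0.43 (SE), adjusted p = 1.62e-08). Btnl9, a butyrophilin-like surface protein, stood at 944 and 1004 CPM in heart and 2.08, 1.58 and 1.76 CPM in lung (log2 difference 9.07 ± 1.01 (SE), adjusted p = 1.63e-05). For neither gene did the heart libraries overlap the lung libraries, as the rule for naming the largest differences required. Aqp7, a channel for water and glycerol, was at 218 and 315 CPM in heart and 0.509, 0.554 and 0.558 CPM in lung (log2 difference 8.94 ± 0.89 (SE), adjusted p = 6.07e-06). The fatty acid carrier Fabp4 was the most abundant of these transcripts, at 4258 and 6031 CPM in heart and 18.7, 16.6 and 23.5 CPM in lung (log2 difference 8.04 ± 0.82 (SE), adjusted p = 7.34e-06). Rbp7, a retinol-binding protein of the same carrier superfamily, was at 101 and 133 CPM in heart and 0.436, 0.166 and 0.446 CPM in lung, 329.6-fold higher. The voltage-gated potassium channel gene Kcna5 was at 226 and 244 CPM in heart and at or below 1.45 CPM in lung, a 259.7-fold difference. Papln, a matrix proteoglycan-like protein, was 246-fold higher in heart (adjusted p = 1.25e-06) and the phospholipid exporter Abcb4 183-fold (adjusted p = 1.54e-05). The matrix metalloproteinase inhibitor Timp4 differed between the heart libraries themselves, at 162 and 602 CPM in heart and 1.36, 2.27 and 2.26 CPM in lung, and was called at adjusted p = 0.000199. Nav3, a microtubule-associated protein, was at 125 and 108 CPM in heart and 0.291, 0.111 and 0.0558 CPM in lung (log2 difference 9.5 ± 0.58 (SE), adjusted p = 1.04e-07). The membrane protein gene Tmem182 was at 37.9 and 22.1 CPM in heart with 3 counts in all lung libraries together.

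Towards lung the largest differences included a transcription factor locus, mediator-clearing proteins and several genes with no read in heart. Fendrr, a long noncoding RNA, was at 1500.2, 1148 and 1189.5 CPM in lung and 1.6 and 1.91 CPM in heart (log2 difference -9.51 ± 0.33 (SE), adjusted p = 1.27e-09). It lies next to Foxf1, the gene of a forkhead factor needed for lung vessels, on chromosome 8 of GRCm38 (Fendrr at chr8:121054882-121083110, minus strand, and Foxf1 at chr8:121084386-121088144, plus strand). Their starts are 1276 bases apart and point away from each other. Foxf1 was at 1664, 1795 and 1362 CPM in lung and 3.28 and 5.02 CPM in heart (log2 difference -8.6 ± 0.45 (SE), adjusted p = 3.1e-08), so both genes of the locus were near 0 in heart. Hpgd, the enzyme that inactivates prostaglandins, was at 1899.6, 1868 and 2127 CPM in lung and 2.03 and 5.93 CPM in heart (log2 difference -8.94 ± 0.78 (SE), adjusted p = 1.97e-06), and its lung libraries lay within a narrow range. Slc6a2, the noradrenaline transporter, was at 365, 599.7 and 467 CPM in lung and 1.07 and 0.665 CPM in heart (log2 difference -9.1 ± 0.82 (SE), adjusted p = 2.56e-06). Tmeff1 was 533-fold higher in lung, Disp2 594-fold, and Slc24a4, a sodium, calcium and potassium exchanger, 446-fold. Dpysl5, of a family known from axon growth, varied within lung, at 13.3, 65.4 and 42 CPM in lung and 0.0871 and 0.0831 CPM in heart. Plcb2, a phospholipase C, was at 60.4, 47.1 and 55.4 CPM in lung and 0.116 and 0.0277 CPM in heart. Ankrd63, Cfap65 and Cyp2b10 had no count in either heart library. Against a floor of 3 counts over the 2 heart libraries they were at least 2040-fold, 744-fold and 480-fold higher in lung, with lung values of 57.1, 77.5 and 125 CPM, 36.1, 19.6 and 39.1 CPM and 14.9, 24.6 and 21.6 CPM. Lgi3, with 1 read in heart, was at 17.8, 25.9 and 21.8 CPM in lung. Cfap65 encodes a protein of cilia, and the ciliated-cell factor Foxj1 was at 69.1, 35.7 and 68.2 CPM in the same lung libraries.

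**Figure D2:**
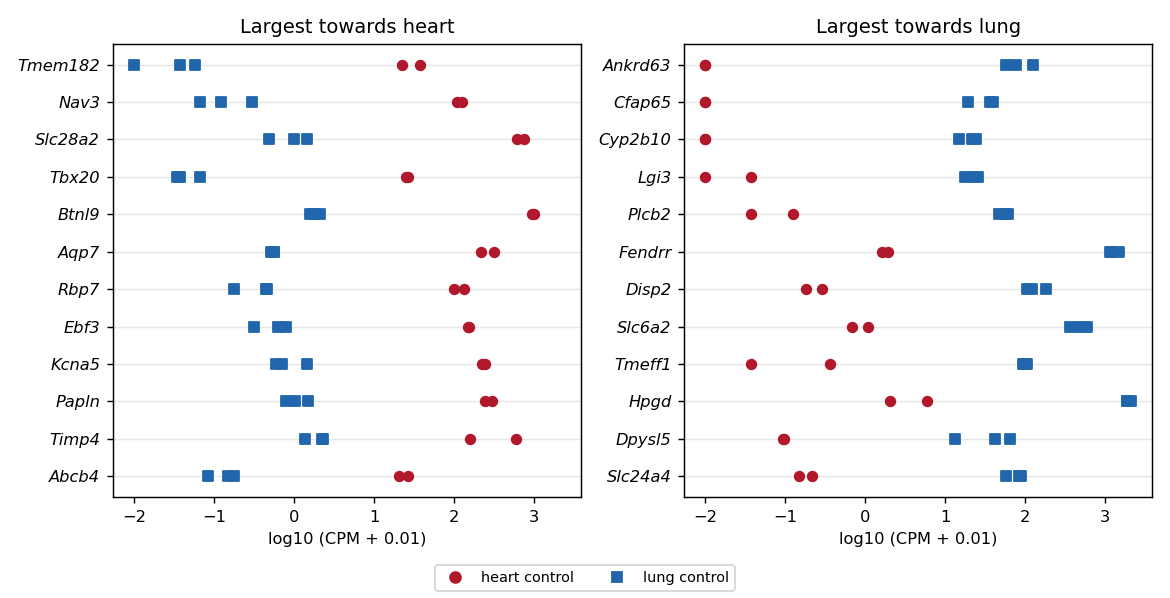
Expression of the 12 genes with the largest called difference towards heart and the 12 towards lung, as log10 of CPM plus 0.01, with 1 point per library (heart red, lung blue). Only genes whose heart and lung libraries do not overlap were eligible, so the separation in each row was set by the choice of genes. Genes on the marker lists of other cell types were left out, also where their differences were larger. Genes of other cells outside these lists could stay, as did Cfap65, which encodes a protein of cilia. Ankrd63, Cfap65 and Cyp2b10 lie at the value of 0 CPM in both heart libraries.

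Promoters of 6 of these and the panel genes below are shown as examples of genes whose levels lay far apart between the tissues: Meox2, Slc28a2 and Btnl9 for heart and Fendrr, Prx and Sema3c for lung. Each line gives the 250 bases before the RefSeq start on GRCm38.p6, 5′ to 3′ on the gene's strand, with GGAA or its reverse complement TTCC, the core that ETS proteins bind, in capitals.
Meox2, chr12:37108290-37108539, plus strand: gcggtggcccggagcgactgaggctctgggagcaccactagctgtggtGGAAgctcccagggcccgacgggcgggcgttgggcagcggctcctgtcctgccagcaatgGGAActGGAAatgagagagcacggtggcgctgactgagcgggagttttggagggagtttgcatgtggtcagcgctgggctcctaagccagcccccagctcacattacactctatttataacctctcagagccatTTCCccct
Slc28a2, chr2:122426185-122426434, plus strand: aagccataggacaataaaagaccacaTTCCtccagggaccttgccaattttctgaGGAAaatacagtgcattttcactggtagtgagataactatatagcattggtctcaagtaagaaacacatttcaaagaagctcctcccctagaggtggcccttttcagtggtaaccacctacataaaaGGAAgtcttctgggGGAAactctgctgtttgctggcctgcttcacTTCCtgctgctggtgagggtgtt
Btnl9, chr11:49187090-49187339, minus strand: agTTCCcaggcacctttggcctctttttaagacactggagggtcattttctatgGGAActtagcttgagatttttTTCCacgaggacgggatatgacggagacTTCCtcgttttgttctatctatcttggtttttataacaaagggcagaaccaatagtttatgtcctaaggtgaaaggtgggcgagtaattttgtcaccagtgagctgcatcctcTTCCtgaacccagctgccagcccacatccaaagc
Fendrr, chr8:121083111-121083360, minus strand: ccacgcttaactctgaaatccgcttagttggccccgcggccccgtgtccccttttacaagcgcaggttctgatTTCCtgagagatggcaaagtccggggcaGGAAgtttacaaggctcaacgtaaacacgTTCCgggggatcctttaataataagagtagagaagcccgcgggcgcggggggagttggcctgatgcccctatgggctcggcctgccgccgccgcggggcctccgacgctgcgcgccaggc
Prx, chr7:27499074-27499323, plus strand: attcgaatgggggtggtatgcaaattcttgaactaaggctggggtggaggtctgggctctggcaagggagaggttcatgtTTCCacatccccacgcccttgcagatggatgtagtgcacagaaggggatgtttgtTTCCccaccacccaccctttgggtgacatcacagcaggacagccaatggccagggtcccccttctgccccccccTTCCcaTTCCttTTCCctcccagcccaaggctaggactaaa
Sema3c, chr5:17574566-17574815, plus strand: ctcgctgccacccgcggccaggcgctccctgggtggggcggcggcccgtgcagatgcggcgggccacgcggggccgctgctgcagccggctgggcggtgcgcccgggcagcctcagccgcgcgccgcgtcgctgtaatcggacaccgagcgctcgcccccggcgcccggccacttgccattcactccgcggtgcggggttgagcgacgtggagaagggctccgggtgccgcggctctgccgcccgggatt
The core occurred 4 times in the Meox2 window, 5 in Slc28a2, 5 in Btnl9, 3 in Fendrr, 5 in Prx and 0 in Sema3c. Of all 32851 windows of this length, 93.4% held at least 1 core, as did 93.0% of those of genes called for heart and 92.5% of those of genes called for lung. CpG dinucleotides numbered 0 in Slc28a2, 2 in Prx, 5 in Btnl9, 12 in Meox2, 23 in Fendrr and 39 in Sema3c. The median number was 14 for heart-called genes, 11 for lung-called genes and 13 for the genes tested. Of the 87 genes named by the rule given under the processing, 57 have a window in the RefSeq table.

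Genes that define endothelium in any vessel were called in both directions. Of a panel of 20, 6 were higher in heart, 6 in lung and 8 were not called, with a median difference of -0.17. Cdh5, which encodes VE-cadherin, the antigen of the sort, was at 2630.1 and 2818 CPM in heart and 3258, 3467 and 3777 CPM in lung and was not called (adjusted p = 0.205). Tie1, Esam, Egfl7, Eng and Pecam1 likewise did not pass, with differences between -0.45 and 0.13. Cldn5, the tight junction protein of endothelium, was at 3605, 3072 and 2439 CPM in lung and 387 and 373 CPM in heart, 8-fold higher in lung (log2 difference -3 ± 0.23 (SE), adjusted p = 5.77e-07). Plvap, which forms the diaphragm of caveolae and of transendothelial channels, was at 3010, 2066 and 2467 CPM in lung and 28.5 and 83.2 CPM in heart (log2 difference -5.49 ± 0.43 (SE), adjusted p = 6.84e-07). Thbd (thrombomodulin) was at 3520.4, 4251 and 4397 CPM in lung and 909 and 1266 CPM in heart. Vwf (von Willebrand factor) was at 2764, 2569 and 2883 CPM in lung and 364 and 757 CPM in heart. For Vwf the call was lost without heart control 1 (adjusted p = 0.128), the library with the lower Vwf value. On the heart side, Nos3, the endothelial nitric oxide synthase, was at 406 and 353 CPM in heart and 89.6, 69.8 and 89.4 CPM in lung, 4.58-fold higher (log2 difference 2.19 ± 0.21 (SE), adjusted p = 4.04e-06). Mmrn2, a matrix glycoprotein of vessels, was 2.77-fold and Emcn (endomucin) 2.17-fold higher in heart. Of the 2 ETS genes deleted elsewhere in the series, Fli1 was at 198 and 236 CPM in heart and 76.6, 77.9 and 76.6 CPM in lung (log2 difference 1.49 ± 0.17 (SE), adjusted p = 1.86e-05). Erg was at 204 and 229 CPM in heart and 263, 259 and 276 CPM in lung and was not called (adjusted p = 0.147).

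Fatty acid uptake and binding held carriers that were far higher in heart and surface proteins that were abundant in both tissues. Of 28 genes in this group 7 were called for heart and 5 for lung, and the median difference was 0.33. Beside Fabp4, the carrier Fabp5 was at 214 and 236 CPM in heart and 15.6, 14.8 and 12.2 CPM in lung (log2 difference 3.98 ± 0.25 (SE), adjusted p = 1.19e-07). Fabp3, the muscle carrier, was low in both, at 5.92 and 7.54 CPM in heart and 0.291, 0.194 and 0.195 CPM in lung, and is also a cardiomyocyte marker. Cd36, the fatty acid translocase of the surface, was abundant in both tissues, at 4487 and 5822 CPM in heart and 3194, 3190.3 and 3384 CPM in lung, and was not called (adjusted p = 0.145). Gpihbp1, which anchors lipoprotein lipase on capillaries, was at 694 and 884 CPM in heart and 554, 551 and 535 CPM in lung (adjusted p = 0.408). Lpl, the lipase, was at 618 and 1801 CPM in heart and 301, 651 and 628 CPM in lung (adjusted p = 0.264), where the second heart library alone stood above all others. In the fit of the 5 libraries alone Cd36 and Gpihbp1 did pass (adjusted p = 0.0144 and 0.018). Angptl4, an inhibitor of that lipase, was low but higher in heart, at 10.9 and 27.8 CPM in heart and 2.45, 5.1 and 1.78 CPM in lung (adjusted p = 0.0137). This call was lost without heart control 3, lung control 1 or lung control 3 (adjusted p = 0.156, 0.0514 and 0.0554). The 5 lung calls, Acsl3, Acsl4, Lipg, Fabp1 and Slc27a2 included 3 of at most 7.29 CPM in any library (Lipg, Fabp1 and Slc27a2) and 2 with differences of -0.52 and -1.01, and leaving out heart control 1, heart control 3 or lung control 1 left 2, 1 and 2 of such calls.

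Among 36 genes of lipid storage and oxidation, 8 were called for heart and 4 for lung (2 for lung without heart control 1). Pparg, the nuclear receptor whose targets include Fabp4, Aqp7 and Rbp7, was at 68.5 and 108 CPM in heart and 1.74, 1.66 and 2.2 CPM in lung (log2 difference 5.56 ± 0.54 (SE), adjusted p = 4.84e-06). Mgll, the monoacylglycerol lipase, was at 1448 and 1654 CPM in heart and 157, 215 and 193 CPM in lung, 8.24-fold higher (log2 difference 3.04 ± 0.28 (SE), adjusted p = 2.81e-06). Lipe, the hormone-sensitive lipase, was 2.73-fold higher in heart. Ucp2, an uncoupling protein of the mitochondrial membrane, was higher in lung, at 432, 576 and 512 CPM in lung and 129 and 205 CPM in heart (adjusted p = 0.00489, or 0.0751 without heart control 1). The mitochondrial oxidation enzymes Hadha, Hadhb and Acadm were not called. Cpt1a, which admits fatty acids to mitochondria, was at 106 and 134 CPM in heart and 120.0, 200.2 and 178 CPM in lung (adjusted p = 0.152). Nuclear genes of the respiratory chain had few calls, with 1 of 63 called for heart (Atp5j), 1 for lung (Sdhb, lost without heart control 1 at adjusted p = 0.0862) and a median of -0.08. Glycolysis genes were called in 5 of 23 cases for heart and 2 for lung, 30.4% of the group against 29.5% of all genes. They were led by Ldha at 269 and 294 CPM in heart and 140.5, 129.7 and 129.8 CPM in lung (log2 difference 1.08 ± 0.20 (SE), adjusted p = 0.00118). Leaving out single libraries gave 2 to 3 heart calls, and the lung count was 0 without heart control 1 or 3 and 1 without lung control 2 or 3. Of 15 fat cell markers tested, 4 were higher in heart and 2 in lung. They summed to 5147 to 8196 CPM in heart and 684 to 944 CPM in lung, and most of the heart sum was Fabp4. The fat cell markers Plin1 and Cfd were at 0 in both heart libraries.

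Transcription factors known from organ patterning included some of the largest differences. Of 51 organ factors 23 were called for heart, 11 for lung and 17 were not called, against 6, 5 and 19 of 30 general endothelial factors. Meox2 and Tcf15 act as partners in heart endothelium. Meox2 was at 187 and 216 CPM in heart and 3.85, 2.69 and 2.57 CPM in lung (log2 difference 6.05 ± 0.75 (SE), adjusted p = 3.96e-05). Tcf15 was at 261 and 326 CPM in heart and 3.46, 2.8 and 2.98 CPM in lung (log2 difference 6.57 ± 0.55 (SE), adjusted p = 1.31e-06). The zinc finger factor Wt1 was at 91.9 and 75.6 CPM in heart and 0.17, 0.0831 and 0.139 CPM in lung (log2 difference 9.27 ± 0.86 (SE), adjusted p = 3.16e-06), although it is also an epicardial marker. The mesothelial and epicardial markers Msln and Upk3b were at 0.812 and 2.72 and 0.667 and 6.26 CPM in the same heart libraries. Ebf1 and Ebf3, members of the early B-cell factor family, were 14.7-fold and 267-fold higher in heart. The cardiac factors Tbx20, Gata4 and Hand2 were at 25.3 and 26.9, 17.7 and 27.5 and 5.46 and 12.5 CPM in heart and at or below 0.363 CPM in lung. Nkx2-5, which marks the muscle lineage, was at 0.406 and 0.61 CPM in heart. Of the 79 cardiomyocyte markers, however, 55 were higher in heart and 2 in lung, with Myh6 at 52.4 and 84.9 CPM in heart. The part that muscle cells have in the values of these cardiac factors was not tested. Mecom, the forkhead gene Foxc1 and Mef2c were also higher in heart, by 3.93-fold, 7.32-fold and 2.93-fold.

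On the lung side, beside Foxf1, the T-box gene Tbx2 was at 187, 509 and 383 CPM in lung and 51.3 and 45.6 CPM in heart (log2 difference -2.89 ± 0.50 (SE), adjusted p = 0.000608). Tbx3 was at 381, 705 and 659.8 CPM in lung and 156 and 186 CPM in heart and was not called (adjusted p = 0.0937). Gata2 was at 629, 916 and 1092 CPM in lung and 261 and 362 CPM in heart and the forkhead gene Foxp1 at 416, 345 and 501 CPM in lung and 107 and 116 CPM in heart, 2.82-fold and 3.77-fold higher. Irx1 and Tbx4, both low, were at 12.9, 19 and 14.6 and 9.81, 10.3 and 7.39 CPM in lung and at or below 0.139 CPM in heart. Epas1, the hypoxia-inducible factor HIF-2 alpha, was very abundant in both tissues and higher in lung, at 9204, 12294 and 11490 CPM in lung and 2476 and 3325 CPM in heart (log2 difference -1.92 ± 0.26 (SE), adjusted p = 8.36e-05). Hox genes, which record position along the body axis, were called for lung in 7 of 18 cases and for heart in 3. Hoxa5 was at 158, 171 and 171 CPM in lung and 8.82 and 10.1 CPM in heart (log2 difference -4.14 ± 0.44 (SE), adjusted p = 1.13e-05). Hoxb5 was at 24.7, 25.7 and 27.3 CPM in lung and 2.55 and 1.55 CPM in heart. All 7 lung calls came from clusters A and B. Of the 3 heart calls 2 were low genes of cluster D, Hoxd8 at 3.54 and 5.54 CPM in heart and Hoxd4, whose call was lost without any 1 of the 5 libraries (adjusted p = 0.0724 to 0.087). Klf2 and Klf4, factors induced by flow, were not called (adjusted p = 0.322 and 0.601), and neither were Sox17, Sox18 and Sox7.

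**Figure D3:**
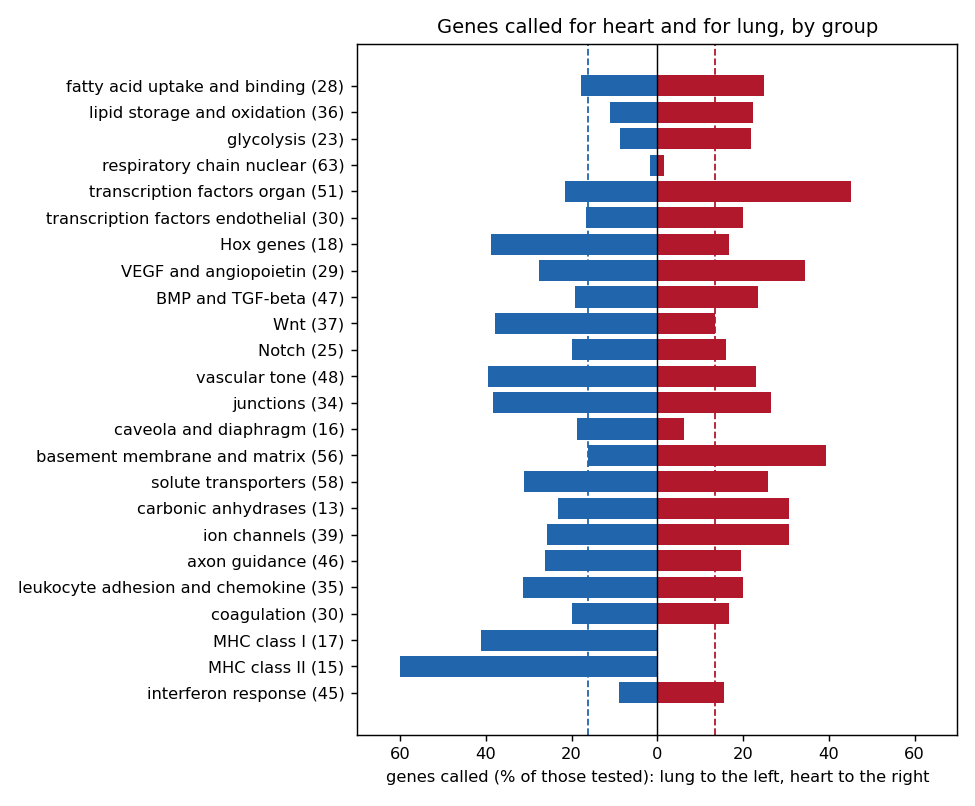
Share of tested genes called for heart (red, to the right) and for lung (blue, to the left) in 24 gene groups, in percent, with the number tested in brackets. Dashed lines mark the share over all genes, 13.5% for heart and 16.1% for lung; respiratory chain genes lie below both lines and class I and class II antigen-presentation genes have no heart call.

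The VEGF, angiopoietin and adrenomedullin systems differed in both directions, ligand by ligand and receptor by receptor. Of 29 genes 10 were called for heart and 8 for lung. Vegfa itself was at 1405, 986 and 1149 CPM in lung and 74.5 and 72.7 CPM in heart (log2 difference -4 ± 0.60 (SE), adjusted p = 0.000215). Alveolar type 1 cells are a known source, and their marker Hopx was at 103, 147 and 114 CPM in lung and 2.81 and 3.96 CPM in heart. Both main VEGF receptors were higher in heart. Kdr (VEGFR2) was at 3309.8 and 2839 CPM in heart and 1072, 1591 and 1381 CPM in lung (log2 difference 1.19 ± 0.23 (SE), adjusted p = 0.00145). Flt1 (VEGFR1) was at 2039 and 2398 CPM in heart and 1096, 1229.6 and 1271 CPM in lung (log2 difference 0.89 ± 0.23 (SE), adjusted p = 0.00944). Without heart control 3 the Flt1 call was lost (adjusted p = 0.0813). The co-receptor Nrp2 was at 683 and 577 CPM in heart and 46.5, 45.4 and 43.1 CPM in lung (log2 difference 3.81 ± 0.19 (SE), adjusted p = 2.23e-08). Nrp1 was not called (adjusted p = 0.219). Tek (TIE2), the receptor of angiopoietins, was higher in lung, at 1446, 1342 and 1533 CPM in lung and 591 and 608 CPM in heart (log2 difference -1.26 ± 0.23 (SE), adjusted p = 0.000924). Ptprb, a phosphatase that acts on TIE2, was 2.02-fold higher in lung, and this call was lost without heart control 1, heart control 3 or lung control 3 (adjusted p = 0.122, 0.0972 and 0.0636). The receptor genes of adrenomedullin, a vasodilator peptide, were higher in lung. Calcrl was at 3403, 3329.8 and 3892 CPM in lung and 155 and 197 CPM in heart (log2 difference -4.33 ± 0.21 (SE), adjusted p = 1.79e-08). Ramp2 was at 1199, 1632 and 1690.2 CPM in lung and 251 and 369 CPM in heart (log2 difference -2.28 ± 0.28 (SE), adjusted p = 3.38e-05). The ligand gene Adm was higher in heart, at 32.4 and 33.6 CPM in heart and 9.96, 4.52 and 7.19 CPM in lung (adjusted p = 1.31e-05). So was the alternative receptor partner Ramp3, at 49.9 and 53.6 CPM in heart and 17.6, 15.8 and 13.5 CPM in lung (adjusted p = 0.0121; 0.0517 and 0.0606 without heart control 1 or 3). Pdgfb, which recruits pericytes, was 1.83-fold higher in heart (adjusted p = 0.022), a call lost without heart control 1, heart control 3, lung control 1 or lung control 2 (adjusted p = 0.126, 0.0693, 0.0504 and 0.0741). Without heart control 3 the group counts were 5 for heart and 5 for lung, and without heart control 1 the lung count was 4.

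In signalling by bone morphogenetic proteins (BMPs), the receptor genes Acvrl1 and Bmpr2 and the target Smad6 were higher in lung, and the targets Id1 and Id3 were higher in heart. Among 47 genes of the BMP and TGF-beta pathways 11 were called for heart and 9 for lung. Acvrl1, which encodes ALK1, the receptor of circulating BMP9 and BMP10, was at 2671, 3207 and 3288 CPM in lung and 335 and 365 CPM in heart, 8.72-fold higher in lung (log2 difference -3.13 ± 0.17 (SE), adjusted p = 4.03e-08). Its type II partner Bmpr2 was at 1809, 2399 and 2369 CPM in lung and 336 and 390.4 CPM in heart (log2 difference -2.59 ± 0.21 (SE), adjusted p = 1.21e-06). The co-receptor Eng was at 3080.3, 3073 and 3139 CPM in lung and 2557 and 2753 CPM in heart and was not called. Tmem100, a gene that responds to ALK1, was at 1364, 1581 and 1711 CPM in lung and 9.23 and 14.1 CPM in heart (log2 difference -7.06 ± 0.58 (SE), adjusted p = 1.07e-06). Smad6, an inhibitory target of the pathway, was at 1056, 1303 and 1540.2 CPM in lung and 139 and 196 CPM in heart (log2 difference -2.95 ± 0.30 (SE), adjusted p = 8.21e-06). The ligand gene Bmp6 was 3.27-fold higher in lung (adjusted p = 0.000125). Id1 and Id3, targets of the same SMAD proteins, went the other way, at 665 and 1019.9 CPM in heart and 287, 336 and 408 CPM in lung and at 554 and 829 CPM in heart and 219.9, 305 and 366 CPM in lung (adjusted p = 0.0136 and 0.00319). Both calls were lost without heart control 3, the library with the higher values (adjusted p = 0.146 and 0.0619), and that of Id1 also without lung control 1 (0.0516). Ltbp4, which stores latent TGF-beta in the matrix, was abundant and higher in heart, at 4106 and 4476 CPM in heart and 813, 725 and 813 CPM in lung (log2 difference 2.45 ± 0.30 (SE), adjusted p = 3.2e-05). Smad7, Smad4, Tgfbr2 and Tgfb1 were not called. The heart count of 11 became 6 without heart control 1, 5 without heart control 3 and 7 without lung control 1.

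**Figure D4:**
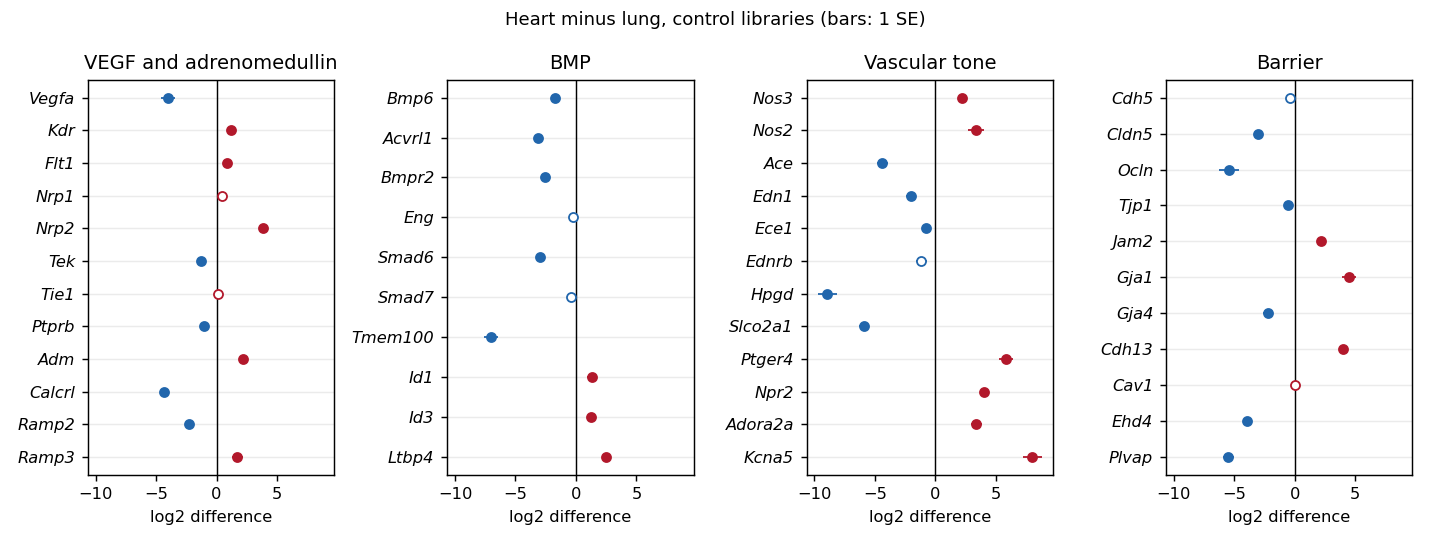
Log2 difference, heart minus lung, with bars of 1 standard error, for genes of VEGF and adrenomedullin signalling, BMP signalling, vascular tone and barrier, grouped by role. Filled points passed the threshold and open points did not; Calcrl, Acvrl1, Ace, Hpgd and Plvap lie far on the lung side, and Nrp2, Npr2, Kcna5 and Gja1 far on the heart side.

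In the Wnt pathway 14 of 37 genes were called for lung and 5 for heart, and the median was -0.27. Several lung calls were negative regulators that Wnt signalling itself induces. Nkd1 was at 443, 523 and 509 CPM in lung and 6.99 and 9.64 CPM in heart (log2 difference -5.88 ± 0.33 (SE), adjusted p = 5.08e-08). Axin2 was at 33.6, 42.6 and 60.5 CPM in lung and 3.54 and 5.88 CPM in heart (log2 difference -3.27 ± 0.37 (SE), adjusted p = 2.01e-05), and Nkd2 and Rnf43 were also called. The nuclear partner of beta-catenin Tcf7 was 13.8-fold higher in lung. The receptors Fzd4, Lrp5 and Fzd6 were not called. Ctnnb1, which encodes beta-catenin, was 1.64-fold higher in heart (adjusted p = 0.00655, or 0.0564 without heart control 3). Without heart control 3 the lung count was 7, and the heart count was 3 without heart control 1 or heart control 3.

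Notch genes were called in 4 of 25 cases for heart and 5 for lung, with a median of -0.01. Together these were 36% of the group, against 29.5% of all genes. The endothelial ligand Dll4 was at 291 and 366 CPM in heart and 282, 364 and 387 CPM in lung and the receptors Notch1 and Notch4 were not called (adjusted p = 0.878, 0.224 and 0.185). Dll1 was 4.1-fold and the ephrin gene Efnb2, an arterial target, 2.91-fold higher in lung. Notch3, which is prominent in pericytes, was at 140.2 and 138 CPM in heart and 13.4, 20.1 and 16.2 CPM in lung (adjusted p = 0.0226). The pericyte gene Rgs5 was at 526 and 608 CPM in heart and 20.3, 19.6 and 14.9 CPM in lung. Pdgfrb was at 61.7 and 78.9 CPM in heart and 21.5, 15.5 and 13.2 CPM in lung. Leaving out any 1 of the 5 libraries ended the calls of Notch3 and Pdgfrb. Without 1 lung library the adjusted p was 0.0553 to 0.0737 for Notch3 and 0.0699 to 0.124 for Pdgfrb. Each heart library was above each lung library for both genes, as it was for 5611 of all 19646 genes tested. Leaving out heart control 1 gave 2 and 2 calls for heart and lung, and leaving out heart control 3, lung control 2 or lung control 3 gave 2, 2 and 2 for heart.

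Genes that set vascular tone were called 11 times for heart and 19 times for lung among 48, and the largest lung values belonged to enzymes and transporters that act on circulating mediators. Ace, the angiotensin-converting enzyme, was at 4115, 5258 and 5870.4 CPM in lung and 196 and 292 CPM in heart, 20.8-fold higher in lung (log2 difference -4.38 ± 0.48 (SE), adjusted p = 1.54e-05). Slco2a1, which carries prostaglandins into the cell where Hpgd degrades them, was at 1642, 2810.4 and 2573 CPM in lung and 30.8 and 46.6 CPM in heart (log2 difference -5.92 ± 0.40 (SE), adjusted p = 2.42e-07). Edn1 (endothelin-1) was at 159, 127 and 214 CPM in lung and 31.8 and 49 CPM in heart and Ece1, the enzyme that activates it, was 1.67-fold higher in lung. The beta-adrenergic receptor gene Adrb1 was at 127, 128 and 171 CPM in lung and 1.13 and 0.222 CPM in heart. Piezo2, a mechanosensitive channel, was at 126, 194 and 176 CPM in lung and 2.23 and 4.71 CPM in heart. Piezo1 was 1.61-fold higher in heart (adjusted p = 0.0135; 0.123 without heart control 1 and 0.0536 without lung control 1). Npr2, the receptor of C-type natriuretic peptide, was at 315 and 335 CPM in heart and 19.6, 21.7 and 18.9 CPM in lung (log2 difference 4.02 ± 0.20 (SE), adjusted p = 1.8e-08). Ptger4, a prostaglandin E2 receptor, was at 83.4 and 75.8 CPM in heart and 0.848, 1.16 and 2.2 CPM in lung. Adora2a, an adenosine receptor, was at 87.8 and 127 CPM in heart and 14.5, 6.73 and 9.95 CPM in lung. Nos2, the inducible synthase, was at 194 and 159 CPM in heart and 25.1, 12.2 and 13.9 CPM in lung. Ddah1, which breaks down an inhibitor of these synthases, was 11.4-fold higher in lung. Abcc9 and Kcnj8, subunits of 1 potassium channel, were higher in heart, Abcc9 at 29.3 and 51 CPM in heart and 7.12, 6.87 and 7.5 CPM in lung, and both are pericyte markers; for Kcnj8 the call was lost without heart control 3 (adjusted p = 0.0594). Without heart control 1 the lung count was 11.

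Barrier genes also went in both directions, with 13 of 34 junction genes called for lung and 9 for heart. Beside Cldn5, the tight junction genes Ocln, Tjp1 and Tjp3 were higher in lung, Ocln at 68.7, 82.7 and 81.3 CPM in lung and 1.19 and 2.38 CPM in heart (log2 difference -5.43 ± 0.79 (SE), adjusted p = 0.000166), and the Tjp1 call was lost without heart control 1 (adjusted p = 0.116). Ocln, Cldn3, Cgn and Tjp3 are also expressed in epithelia. Cdh1, the epithelial cadherin, was at 33.5, 32.1 and 47.8 CPM in lung and 0.0871 and 0 CPM in heart. Heart held the higher values of the junctional adhesion molecules Jam2 and Jam3. Jam2 was at 963 and 1033 CPM in heart and 226, 198 and 235 CPM in lung (log2 difference 2.18 ± 0.27 (SE), adjusted p = 3.94e-05). The gap junction gene Gja1 (connexin 43) was at 418 and 476 CPM in heart and 16.8, 20.7 and 22.3 CPM in lung (log2 difference 4.49 ± 0.57 (SE), adjusted p = 5.04e-05). Cdh13 (T-cadherin) was at 251 and 325 CPM in heart and 15.6, 15.6 and 22 CPM in lung (log2 difference 4.03 ± 0.28 (SE), adjusted p = 3.07e-07). Gja4 (connexin 37) was 4.74-fold higher in lung. In caveolae, the coat genes Cav1, Cav2 and Cavin2 were not called, with Cav1 at 2447 and 2738 CPM in heart and 2489, 2461 and 2617 CPM in lung. Ehd4, a membrane-shaping ATPase of the group, was at 1696, 1775 and 1905 CPM in lung and 102 and 125 CPM in heart (log2 difference -3.98 ± 0.25 (SE), adjusted p = 1.42e-07) and, with Plvap and Cavin4, made up the 3 lung calls among 16 genes.

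Basement membrane and matrix genes were called 22 times for heart and 9 times for lung among 56, with a median of 0.52. Hspg2 (perlecan), the heparan sulfate proteoglycan of basement membranes, was at 6182 and 5385 CPM in heart and 89.1, 78.8 and 113 CPM in lung (log2 difference 5.95 ± 0.29 (SE), adjusted p = 1.8e-08). The endothelial laminin chain genes Lama4, at 601 and 478 CPM in heart and 42.2, 35.8 and 37.7 CPM in lung, and Lamb1, at 541 and 384 CPM in heart and 23.3, 20.5 and 19.6 CPM in lung, were 14-fold and 21.9-fold higher in heart. Lamc1 was 3.45-fold higher. Lama5, the other endothelial alpha chain, was at 825 and 725 CPM in heart and 674, 830.3 and 909.9 CPM in lung and was not called (adjusted p = 0.871). Nid2 (nidogen 2) was at 216 and 183 CPM in heart and 3.78, 6.01 and 4.46 CPM in lung (log2 difference 5.39 ± 0.46 (SE), adjusted p = 1.53e-06). Col4a1 and Col4a2 were 2.16-fold and 2.35-fold higher, calls that were lost without heart control 1 (adjusted p = 0.156 and 0.085). Sparcl1, an anti-adhesive matrix protein, was at 2905 and 2979 CPM in heart and 378, 409 and 429 CPM in lung (log2 difference 2.86 ± 0.53 (SE), adjusted p = 0.00111). Fn1 (fibronectin) was at 479 and 477 CPM in heart and 79, 55.7 and 69.8 CPM in lung. Igfbp3 was at 366 and 432 CPM in heart and 23.8, 17.5 and 34.4 CPM in lung. The Igfbp3 call was lost without heart control 3, lung control 1 or lung control 2 (adjusted p = 0.0516, 0.0532 and 0.0599). Lung held Itga3, at 364, 589.9 and 479.7 CPM in lung and 35.4 and 39.9 CPM in heart, Itga2, at 126, 122 and 122 CPM in lung and 6.82 and 4.43 CPM in heart, and Timp2, at 484, 622 and 596 CPM in lung and 121 and 152 CPM in heart. The laminin 332 chain Lamb3 was at 5.38, 9.39 and 9.06 CPM in lung and 0.116 and 0.526 CPM in heart, beside the alveolar epithelial markers given above. Among fibroblast genes, Col1a1 was at 128 and 86 CPM in heart and 159.9, 69.3 and 98.2 CPM in lung and was not called (adjusted p = 0.988). Dcn was at 275 and 434 CPM in heart and 125, 84.8 and 137 CPM in lung. Lum was at 57.1 and 79.2 CPM in heart and 10.3, 4.07 and 8.81 CPM in lung. The Dcn call was lost without heart control 3 or lung control 2 (adjusted p = 0.124 and 0.0545).

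Solute transporters were called 15 times for heart and 18 times for lung among 58. Slc6a6, the taurine transporter, was at 1516 and 1644 CPM in heart and 331, 214 and 347 CPM in lung (log2 difference 2.41 ± 0.29 (SE), adjusted p = 2.85e-05). Slc26a10 was at 841 and 803 CPM in heart and 16.9, 13.1 and 14.7 CPM in lung (log2 difference 5.78 ± 0.51 (SE), adjusted p = 2.1e-06). Abcc4, which exports cyclic nucleotides and prostaglandins, was 9.41-fold higher in heart. Slc16a9, of the monocarboxylate family, was at 153, 214 and 229.7 CPM in lung and 1.13 and 2.19 CPM in heart. Slc3a2, a chain shared by amino acid exchangers, was at 601, 748 and 675 CPM in lung and 128 and 165 CPM in heart. Aqp1, the water channel, was at 3489 and 4618 CPM in heart and 3312, 2970 and 3111 CPM in lung. Slc2a1, the glucose transporter of barrier endothelium, was at 20.9 and 20.9 CPM in heart and 26.3, 19.7 and 25.1 CPM in lung, and neither it nor Aqp1 was called. Without heart control 1 the counts were 9 for heart and 7 for lung, and without heart control 3 the lung count was 11.

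Carbonic anhydrases, which speed the exchange of carbon dioxide and bicarbonate, were called in 4 of 13 cases for heart and 3 for lung. The cytosolic enzyme Car2 was at 113, 99.6 and 108 CPM in lung and 0.377 and 0.887 CPM in heart (log2 difference -7.38 ± 0.33 (SE), adjusted p = 1.4e-08). The membrane enzyme Car14 was at 63, 66.6 and 56.1 CPM in lung and 0.726 and 1.08 CPM in heart (log2 difference -6.09 ± 0.48 (SE), adjusted p = 7.77e-07). Car4, the membrane enzyme used to mark aerocytes, was at 321, 689.8 and 527 CPM in lung and 225 and 358 CPM in heart and was not called (adjusted p = 0.286). Heart carried Car7, at 67.1 and 69.7 CPM in heart and 2.93, 2.66 and 2.59 CPM in lung. Car8, a member without enzyme activity, was at 227 and 232 CPM in heart and 45.6, 35.9 and 36.4 CPM in lung. Among ion channels (12 of 39 called for heart, 10 for lung), the sodium channel gene Scn7a was at 1209, 1058 and 1244 CPM in lung and 16.3 and 23 CPM in heart. Scn3b, another of the family, was at 280.2, 224 and 257 CPM in lung and 8.82 and 4.77 CPM in heart (log2 difference -5.22 ± 0.49 (SE), adjusted p = 3.5e-06).

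Most genes in the panels of lung capillary types were higher in lung, and the aerocyte genes varied between the lung libraries. Of 16 general capillary genes 12 were called for lung and 0 for heart, with a median of -5.71. Of 16 aerocyte genes 11 were called for lung and 0 for heart, with a median of -2.37. Both panels were chosen with earlier results of these data known, so the counts are no test. The lung panel genes Lpl, Gpihbp1 and Igfbp7 were not called and lay on the heart side (differences 1.2, 0.53 and 0.49). Tbx3, Ednrb, Car4, Cd93, Apln and Spon2 were not called and lay on the lung side (differences -1.77, -1.18, -0.81, -0.76, -0.76 and -0.32). Among general capillary genes, Sema3c, a secreted semaphorin, was at 1540.3, 1281 and 1682 CPM in lung and 9.2 and 6.1 CPM in heart (log2 difference -7.62 ± 0.47 (SE), adjusted p = 1.16e-07). Glp1r, the receptor of an incretin hormone, was at 149.7, 198 and 214 CPM in lung and 0.464 and 0.693 CPM in heart. The receptor kinase Kit was at 869, 818 and 869.7 CPM in lung and 63.3 and 48.9 CPM in heart (log2 difference -3.92 ± 0.45 (SE), adjusted p = 1.94e-05). Hilpda, an inhibitor of triglyceride breakdown, was at 278, 247 and 195 CPM in lung and 4.7 and 5.68 CPM in heart. Prx (periaxin), an aerocyte gene, had the smallest adjusted p of the panel, at 759, 967 and 774 CPM in lung and 12.2 and 12 CPM in heart (log2 difference -6.11 ± 0.20 (SE), adjusted p = 9.83e-10). Lung control 1 was the lowest lung library in 14 of the 16 aerocyte genes. Fibin was at 65.2, 258 and 196 CPM in lung and 7.66 and 8.79 CPM in heart. Ednrb, an endothelin receptor, was at 149, 502 and 362 CPM in lung and 154 and 144 CPM in heart. Chst1 was at 45.3, 121 and 85.6 CPM in lung and 30.9 and 21.7 CPM in heart. Ednrb was not called (adjusted p = 0.0723), and the Chst1 call was lost without heart control 3 (adjusted p = 0.0765). The aerocyte panel summed to 5771 to 8874 CPM in lung and 2140 to 2510 CPM in heart.

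Of the heart panel, 14 of 16 genes were called for heart and 0 for lung, with a median of 5.42. This panel too was chosen with earlier results of these data known, so the count is no test. Slc28a2, Btnl9, Aqp7 and Kcna5 of this panel were also among the largest differences named above. Eepd1 was at 125 and 131 CPM in heart and 4.09, 5.68 and 4.15 CPM in lung (log2 difference 4.78 ± 0.28 (SE), adjusted p = 8.17e-08). Rgcc, a regulator of cell cycle progression, was at 502 and 587 CPM in heart and 30.7, 34.6 and 23.6 CPM in lung (log2 difference 4.2 ± 0.53 (SE), adjusted p = 4.93e-05). Cd36 and Fbln1, at 52.7 and 65.3 CPM in heart and 33.6, 23.8 and 35.7 CPM in lung, were the 2 not called. In the liver controls, Btnl9 was at 588 ± 109 CPM (SD, n = 3) and Car8 at 264 ± 24.8 CPM there. In the same liver libraries Meox2 was at 0.0453 ± 0.0543 CPM, Aqp7 at 0.0592 ± 0.0255 CPM and Tcf15 at 0.847 ± 0.258 CPM. For the lung genes, liver held Kit at 778 ± 148 CPM and Hpgd at 292 ± 64.7 CPM but Foxf1 at 0.89 ± 0.267 CPM and Tmem100 at 0.479 ± 0.0467 CPM.

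Guidance, arterial and venous genes added large single differences. Among 46 axon guidance genes, which also steer vessels, 9 were called for heart and 12 for lung. Together these were 45.7% of the group, against 29.5% of all genes. The semaphorin receptor Plxnd1 was at 2732 and 1877 CPM in heart and 517, 399 and 429.6 CPM in lung (log2 difference 2.36 ± 0.23 (SE), adjusted p = 4.34e-06). The netrin receptor Unc5b was at 441 and 409 CPM in heart and 65.2, 64.9 and 61.2 CPM in lung (log2 difference 2.74 ± 0.24 (SE), adjusted p = 2.27e-06). The ligand gene Ntn1 was at 487, 439.7 and 449 CPM in lung and 75.5 and 97.4 CPM in heart. Plxna1 was at 364, 611 and 648 CPM in lung and 76.7 and 75 CPM in heart. Arterial genes were called 7 times for heart and 3 times for lung among 27. Venous genes were called 8 times for lung and 2 times for heart among 19; the lung count was 3 and 4 without heart control 1 or 3, and the heart count 1 without either. The vein factor Nr2f2 was at 27.3 and 47.8 CPM in heart and 29.7, 32.7 and 28.8 CPM in lung. Ephb4 was at 424 and 489.8 CPM in heart and 426, 447 and 520 CPM in lung, and neither it nor Nr2f2 was called. Lyve1, a marker of lymphatic vessels that other endothelium can carry, was at 976, 1429 and 1146 CPM in lung and 7.84 and 35 CPM in heart. The lymphatic factor Prox1 was at 2.81 and 7.23 CPM in heart and 0.581, 0.693 and 0.614 CPM in lung.

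Antigen-presentation genes of class I were called 7 times among 17 and class II genes 9 times among 15, all for lung, with medians of -0.57 and -4.54. The class I heavy chains H2-K1 and H2-D1 were 1.6-fold and 1.63-fold higher. B2m, their light chain, was at 2904, 2047 and 2268 CPM in lung and 1498 and 1406 CPM in heart (adjusted p = 0.0535). Without heart control 1 the class I count was 2, and in fits of the 5 libraries alone it was 13. The class II chain H2-Ab1 was at 489, 203 and 232 CPM in lung and 11.1 and 7.26 CPM in heart (log2 difference -5.07 ± 0.64 (SE), adjusted p = 4.63e-05). The invariant chain Cd74 was at 1156, 308 and 443 CPM in lung and 17.8 and 15.2 CPM in heart (log2 difference -5.27 ± 0.80 (SE), adjusted p = 0.00022). Ciita, the master regulator of the class, was at 54.9, 37.7 and 37.9 CPM in lung and 1.97 and 1.75 CPM in heart (log2 difference -4.55 ± 0.55 (SE), adjusted p = 3.46e-05). Lung control 1 was highest for each of these, and it was also the highest for Ptprc. The macrophage gene Adgre1 was at 2.4, 1.16 and 4.1 CPM in lung and 1.16 and 2 CPM in heart. Without heart control 1 the calls of H2-D1, H2-K1 and Ptprc were lost (adjusted p = 0.0554, 0.0766 and 0.117), and without heart control 3 that of H2-K1 (0.0501).

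Of 45 interferon-response genes 7 were called for heart and 4 for lung, and the rest did not pass. These calls made 24.4% of the group, against 29.5% of all genes. Rsad2 (viperin) was at 214 and 263 CPM in heart and 14.8, 12.2 and 9.29 CPM in lung (log2 difference 4.3 ± 0.36 (SE), adjusted p = 1.28e-06). Ifit2 was at 101 and 90.7 CPM in heart and 15.7, 13.3 and 11.3 CPM in lung (log2 difference 2.83 ± 0.27 (SE), adjusted p = 4.16e-06). The heart count was 4 without heart control 1 and 17 in the fit of the 5 libraries alone, and the lung count was 0 without heart control 1 and 2 without heart control 3 or lung control 1. In the leukocyte adhesion and chemokine group (7 of 35 for heart, 11 for lung), Cxcl12, the ligand that holds CXCR4-bearing cells, was at 3295 and 3496 CPM in heart and 995, 712 and 991 CPM in lung (adjusted p = 0.0208). The call was lost without heart control 1, heart control 3 or lung control 2 (adjusted p = 0.074, 0.0778 and 0.0718), and with the replicate number as a block (adjusted p = 0.0817). Icam1 and Icam2, which bind leukocyte integrins, were 2.77-fold and 2.46-fold higher in lung, and the Icam1 call was lost without heart control 1 or 3 (adjusted p = 0.0877 and 0.117). Ackr2, a scavenging chemokine receptor, was at 105, 163 and 164 CPM in lung and 4.44 and 6.29 CPM in heart (log2 difference -4.75 ± 0.44 (SE), adjusted p = 3.48e-06). Vcam1 and Sele were not called. The heart count was 4 without heart control 1 or 3, and the lung count 5 and 6. For coagulation, 5 of 30 genes were called for heart and 6 for lung, 36.7% of the group against 29.5% of all genes. Fewer lung calls remained without heart control 1 or heart control 3. F2r, the thrombin receptor, was 2.76-fold higher in heart and Thbd, which turns thrombin to protein C, 3.73-fold higher in lung.

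Of 26 hypoxia-response genes 12 were called for heart (7 without heart control 3) and 4 for lung, the latter being Vegfa, Hilpda, Epas1 and Pfkfb4 (lost for Pfkfb4 without heart control 1 or 3, at adjusted p = 0.0874 and 0.0664). Ndrg1 was at 262 and 304 CPM in heart and 55.8, 36.6 and 36.9 CPM in lung (log2 difference 2.71 ± 0.21 (SE), adjusted p = 5.77e-07). Egln1, an oxygen-sensing hydroxylase, was at 173 and 274 CPM in heart and 58.5, 66.2 and 65.9 CPM in lung (log2 difference 1.81 ± 0.17 (SE), adjusted p = 3.34e-06). Cell cycle genes were called 4 times for heart and 0 times for lung among 32. The heart calls were 12.5% of the group, against 13.5% of all genes. Cdkn1c, an inhibitor of cyclin-dependent kinases, was at 71.2 and 92.8 CPM in heart and 9.79, 10.8 and 12.3 CPM in lung (log2 difference 2.9 ± 0.31 (SE), adjusted p = 1.14e-05). The proliferation marker Mki67 was at 33.9 and 23.7 CPM in heart and 13.5, 2.69 and 9.59 CPM in lung and was not called (adjusted p = 0.091). The cell cycle count was 2 without heart control 3, lung control 2 or lung control 3. Immediate early and heat-shock genes, which tissue dissociation can induce, were called 8 times for heart and 0 times for lung among 41, with a median of 0.81 and sums of 42670 to 53486 CPM in heart and 24732 to 30742 CPM in lung. Klf6 was at 1009.6 and 1204 CPM in heart and 409, 340.1 and 335 CPM in lung (log2 difference 1.61 ± 0.26 (SE), adjusted p = 0.000427). Fos was at 2885 and 5548 CPM in heart and 1285, 1588 and 1607 CPM in lung. Hspa1b was at 5136 and 3372 CPM in heart and 1514, 739 and 773 CPM in lung, and neither Fos nor Hspa1b was called (adjusted p = 0.149 and 0.0549). Their count was 5 without any of heart control 1, heart control 3, lung control 2 and lung control 3, and 25 in the fit of the 5 libraries alone. The part that handling has in other heart values was not tested.

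The same contrast in the libraries labelled double knockout gives these differences in other libraries, which shared the estimate of the spread with the control comparison but entered none of its group means. The tissue difference itself differed between genotypes for 6.4% of all genes by edgeR's interaction term. In the knockouts, 3030 genes were called for heart (15.4%) and 3072 for lung (15.6%), or 1848 and 1619 without knockout heart 1. Of the 2643 heart calls in controls 1419 (53.7%) were also heart calls in the knockouts and 45 were lung calls. Of the 3156 lung calls 1803 (57.1%) were lung calls again and 77 were heart calls. All 14 called genes of the heart panel were called for heart again. For lung, 11 of the 12 general capillary genes and 10 of the 11 aerocyte genes were called again. The panels were chosen with earlier results of these data known, so these shares do not describe other genes. Foxf1 was at 3.52 and 5.32 CPM in knockout heart and 1596, 1921 and 1534 CPM in knockout lung, and Fabp4 at 1847 and 2623 and 14.8, 28 and 165 CPM. Kit was the general capillary gene that was not called, at 296 and 179 and 589, 376 and 419 CPM. Icam2 was the aerocyte gene not called, at 178 and 287 and 338, 577 and 278 CPM. Emcn was called for heart in controls and for lung in knockouts, at 247 and 325 and 373, 569 and 399 CPM. Alveolar type 2 markers were called for lung 29 times in controls and 7 of these were called for lung again in the knockouts, against 20 of 21 airway markers and 13 of 19 alveolar type 1 markers.

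**Figure D5:**
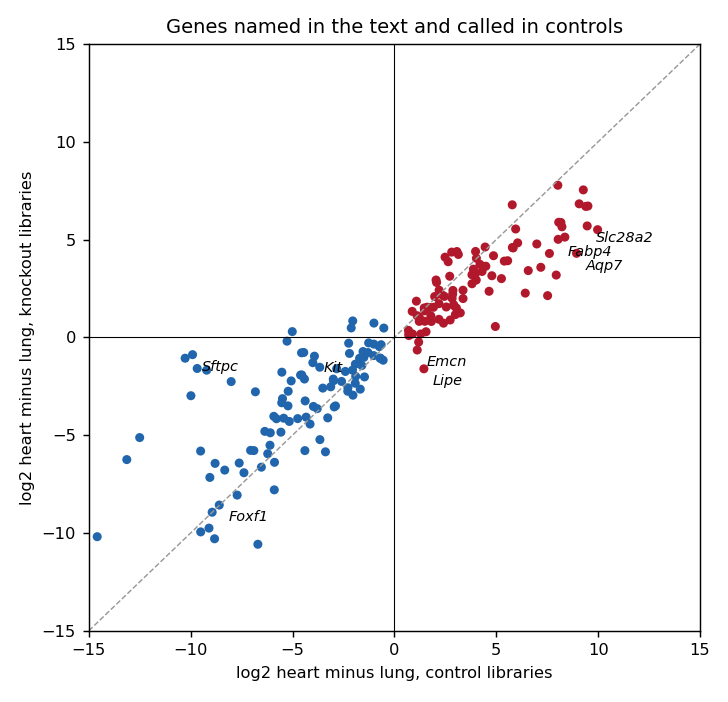
Log2 difference, heart minus lung, in control libraries (x axis) and in knockout libraries (y axis) for the genes named in the text that were called in controls, with 1 point per gene, red where called for heart and blue where called for lung in controls. Of 193 genes 185 share the sign of the control difference, and Emcn lies in the quadrant of opposite sign. Many of these genes were named for a large control difference or a small adjusted p, so this share does not describe all called genes. Of all control calls, 53.7% for heart and 57.1% for lung were called again in the same direction in the knockouts.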

How the data were processed

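Bulk RNA sequencing of sorted endothelial cells was analysed in 16 libraries of 6 groups. The deposited table holds whole-number counts per gene for 52636 genes, not normalized, of which 99.6% carry a symbol and 147 share one. Reads were processed with FastQC 0.11.5 and STAR 2.7.6a on GRCm38, per the submitters' processing notes. No label or note used here names the counting program or its strand setting, and reads of overlapping and antisense genes cannot be told apart. The labels name 2 library kits, 1 of them stranded, without saying which library used which.

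Genes with enough reads (edgeR's filter, minimum count 10, minimum total 15) were scaled by TMM. They were fitted as 6 group means over all 16 libraries with edgeR 4.0.16 in R 4.3.3 (quasi-likelihood test, Benjamini-Hochberg adjustment, threshold 0.05). The pooled fit shares 1 estimate of the spread, and heart adds only 2 libraries. DESeq2 1.42.0, other scalings, filters, sample sets and the replicate block were alternatives. In simulated counts of 19191 genes, the real difference between the control tissues was removed and 200 genes were changed. The test recovered 42% of 2-fold and 76% of 4-fold changes, and 7.09% of its calls were false. In the data 29.5% of genes were called, a far larger share than was changed in the simulation. These rates therefore do not measure recovery or false calls in the data.

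Fold changes are those of the fit, and values per library are counts divided by the scaled library total (CPM). A gene at 0 in 1 tissue was compared with a floor of 3 counts over that tissue's libraries. Named genes were every member of 4 endothelial panels and the 12 largest called differences in each direction. For the latter, libraries of the tissues did not overlap and the higher tissue held at least 20 CPM. Genes on the marker lists of other cell types were not eligible, but genes of such cells outside the lists were. Up to 6 members of each list with the smallest adjusted p were also named, as were members whose role orders the account. The members and lists were chosen with earlier results of these data known. Results of a few genes are not reported here.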

Additional observations from a re-analysis of the deposited data

Results flagged for a closer look

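The heart-minus-lung difference was compared between genotypes with edgeR's interaction term, adjusted over all genes. It differed at an adjusted p below 0.05 for 1257 of 19646 genes (6.4%). Of the 263 genes followed here 54 passed, with adjusted p from 8.28e-05 to 0.0464. Of these 263, 204 were called in controls, many of them named for a large control difference, and the interaction uses the same control values. Such a choice by itself favours a smaller difference in other libraries. The share among the genes followed is therefore not comparable with that over all genes. Each value below is the difference in the knockouts minus that in the controls, on the log2 scale. In 31 of the 54 it was positive and in 23 negative, and the genotypes are those of the labels.

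Some genes known from epithelial cells that were higher in lung in controls had a smaller lung excess in the knockouts: Sftpc by 9.02, Cdh1 by 8.09, Scgb1a1 by 7.005, Cldn3 by 4.04, Tjp3 by 3.75, Cfap65 by 6.89 and Irx1 by 5.75. The epithelial genes Foxj1 and Hopx did not pass (adjusted p = 0.906 and 0.311). Fitted values of Cfap65 and Lgi3 depend on the prior count, since heart controls held 0 or 1 read of them. Class II genes shifted in the same direction, Cd74 by 5.08, H2-Ab1 by 2.84 and Ciita by 2.62.

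Other genes higher in lung in controls also had a smaller lung excess: Kit by 2.96, Plvap by 2.36, Slco2a1 by 1.88, Itga2 by 3.68, Itga3 by 2.14, Disp2 by 7.54, Lgi3 by 9.21, Slc24a4 by 2.36, Plcb2 by 3.7, Gja4 by 1.95, Plxna1 by 1.23, Slc3a2 by 1.39 and Vegfa by 2.71. Of the genes higher in lung in controls, 5 lay on the heart side in the knockouts (Lyz2 by 5.31, Ecscr by 1.1, Edn1 by 2.89, Acsl4 by 0.9981 and Pfkfb4 by 1.74), where Acsl4 and Pfkfb4 were called and the other 3 were not. Scn7a and Hoxb5 shifted further towards lung, by -1.9 and -1.57.

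Heart genes with a smaller heart excess in the knockouts were transporters and channels (Slc28a2 by -3.76, Abcb4 by -5.38, Aqp7 by -4.64, Abcc4 by -1.98 and Slc6a6 by -1.68), transcription factors (Tcf15 by -3.15 and Mef2c by -1.26), receptors and surface or guidance proteins (Unc5b by -1.85, Nrp2 by -1.06, Npr2 by -1.08, Jam3 by -1.25 and Nav3 by -2.78) and others (Papln by -4.75, Eepd1 by -1.63, Mgll by -1.54 and Egln1 by -0.9999). Emcn, Lipe and Kdr changed by -1.76, -3.05 and -1.43 and lay on the lung side in the knockouts, where Emcn and Lipe were called and Kdr was not. Abcc9 moved further towards heart, by 1.62. Genes not called in controls shifted as well, Slc2a1 by 3.002, Lama5 by 1.22, Cavin2 by -1.67 and Nrp1 by -1.28.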

How the results depend on the processing

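No gene called between the control tissues was called in the opposite direction under any of the 13 alternatives, and 57.7% to 99.9% of the 5799 calls remained. Counts for heart and lung stayed within 1.5 times of 2643 and 3156 in the fits of the 5 (3162 and 3587) or 8 control libraries, with DESeq2 (2887 and 3493), other scalings and other filters. Leaving out single libraries gave 1636 to 2145 heart calls and 1831 to 2688 lung calls, lowest without heart control 1 (1636 and 1831), where heart is 1 library assumed to vary like the other groups. In the knockouts the range was 1848 to 2721 and 1619 to 2758, lowest without knockout heart 1. With the replicate block the counts were 2480 and 3114 in controls and 2982 and 3045 in knockouts. The labels say of no number that it marks an animal, litter or day. Correlations of deviations between same-numbered control libraries were 0.257 and 0.214 for heart with lung, and 6 of 7 such pairs over the 3 tissues were above 0.1 (lowest 0.0547, liver and lung 2). Each library correlated best with its own number where the other tissue had it. Deviations were taken from group means, so those of the 2 heart libraries are exact opposites and these correlations are not independent. They cannot decide whether same-numbered libraries are paired. By the numbers of the sample descriptions, every library numbered 2 carried Y-linked transcripts while the others did not. Heart control 3 is titled replicate 2 but had Uty, Kdm5d and Eif2s3y at 0 CPM. Of the genes followed, the block lost the call of Cxcl12 and added B2m and Hspa1b (adjusted p = 0.0817, 0.00767 and 0.0198). Of 263 genes followed, 47 changed their call in at least 1 alternative. In the fit of the 5 libraries alone Tbx3, Hspa1b, Fos and Mki67 passed as well (adjusted p = 0.0019, 0.00206, 0.00347 and 0.0305), and heart calls numbered 26 among fibroblast markers and 12 among glycolysis genes. With 2 heart libraries, 42% of 2-fold changes were recovered in the simulation. Far fewer genes were changed there than were called in the data.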
